A study of Mus musculus with 6 samples.

Results

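The main arms of the growth-linked miR-17-92 and miR-106b-25 microRNA (miRNA) clusters, with miR-20b-5p of the paralogous miR-106a-363 cluster, were followed in the back of the mouse eye after laser injury. These 10 mature miRNAs were chosen by name among the 1836 miRNAs listed in the deposited tables, and all 10 passed the filter on low counts that left 541 miRNAs. The tissue was RPE (retinal pigment epithelium) dissected with choroid and sclera from male mice aged 7 to 8 weeks. In the choroidal neovascularization (CNV) group each eye had received 25 burns from a 532 nm laser (100 mW, 0.1 s, 50 µm), and the eyes were collected 7 days after the burns. Control mice were of the same age and had no laser. Each group had 3 libraries, each made from 4 pooled eyes. The labels give no strain. They do not say that each pool had mice of its own, so a p-value here reflects only the variation among these pools, which may be technical.

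A miRNA recognizes its targets mainly through its seed, bases 2 to 8 from the 5′ end. The miR-17-92 transcript is activated by Myc and E2F factors in dividing cells, and its miRNAs lower brakes on growth and survival such as Cdkn1a and Bcl2l11. In blood vessels miR-92a is known to restrain sprouting, while miR-18a and miR-19 lower the antiangiogenic thrombospondin-1. The miR-106b-25 cluster lies within Mcm7, a gene of the replicative helicase, and is co-expressed with it in cycling cells. Both clusters are also abundant in developing and circulating blood cells.

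The mature sequences below are those of RefSeq for build GRCm38.p6, where all 10 members were found by name. They are shown because the seeds, in capitals, sort the members into 4 families that cut across the clusters. The first 5 share the miR-17 seed.
mmu-miR-17-5p: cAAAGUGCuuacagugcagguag
mmu-miR-20a-5p: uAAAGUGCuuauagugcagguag
mmu-miR-20b-5p: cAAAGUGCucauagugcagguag
mmu-miR-93-5p: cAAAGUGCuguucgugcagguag
mmu-miR-106b-5p: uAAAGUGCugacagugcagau
The miR-18, miR-19 and miR-25/92 seeds follow.
mmu-miR-18a-5p: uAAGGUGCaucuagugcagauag
mmu-miR-19a-3p: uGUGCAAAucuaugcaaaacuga
mmu-miR-19b-3p: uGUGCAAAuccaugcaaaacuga
mmu-miR-25-3p: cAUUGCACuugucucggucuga
mmu-miR-92a-3p: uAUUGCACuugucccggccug

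Several members differ by few bases, counted from 1 at the 5′ end with the first-named miRNA's base first. From miR-17-5p to miR-20a-5p the changes are C1U and C12U, and to miR-20b-5p they are U10C and C12U. From miR-19a-3p to miR-19b-3p the only change is U11C. The X-linked miR-106a-5p differs from miR-17-5p by U10A alone. The sources used here do not give how the authors' counting treated reads that match 2 of these names, so the split between close relatives is uncertain. No member had counts identical to those of another miRNA in all 6 libraries.

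The miR-17-92 hairpins occupy chr14:115043671-115044506 on the plus strand of GRCm38, a stretch of 836 bases with 6 hairpins in an exon of the noncoding host gene Mir17hg in GENCODE M21. The 3 hairpins of miR-106b-25 lie at chr5:138165321-138165818 on the minus strand inside Mcm7. There Mir106b lies in an intron, and Mir93 and Mir25 overlap exons only of retained-intron transcripts. The miR-106a-363 hairpins, 6 in number, lie at chrX:52741693-52742567 on the minus strand. Of these only Mir106a overlaps an annotated host, the noncoding Kis2. The same mature miR-19b-3p comes from chromosomes 14 and X, and so does miR-92a-3p, so neither can be assigned to 1 cluster from its reads. The opposite arms, which do differ between the genes, were rare. Over all 6 libraries the chromosome 14 arms miR-19b-1-5p and miR-92a-1-5p had 15 and 19 counts, and the X-linked arms miR-19b-2-5p and miR-92a-2-5p had 2 and 3.

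The libraries held 5057142 to 12839386 counts, with control replicate 2 the deepest. Of the marker miRNAs listed for 8 cell types none was at 0 in any library. The RPE markers miR-204-5p and miR-211-5p summed to 6768 to 6985 CPM in control and 4522 to 6499 in CNV. CPM here are counts relative to the library total, scaled by the trimmed mean of M-values (TMM). Photoreceptor markers summed to 24740 to 75780 CPM and skeletal muscle markers to 34300 to 91110, so the pools also held RNA of retina and muscle. In pooled tissue, fewer cells of a type and less RNA per cell cannot be told apart.

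No member passed the test of CNV against control. The counts were 0 higher and 0 lower by the quasi-likelihood test of edgeR, adjusted after Benjamini-Hochberg over all 997 small RNAs. Of the 541 tested miRNAs 0.555% were called, 3 higher and 0 lower. DESeq2 and limma-voom also called 0 members, against 4.07% and 0.555% of all miRNAs. At an unadjusted p under 0.05 there was 1 member, miR-20b-5p, against 17.6% of all tested miRNAs (8.5% higher and 9.06% lower). The groups did not overlap for 1 of 10 members, again miR-20b-5p, which was lower. Over all tested miRNAs 24% did not overlap, 12.8% higher and 11.3% lower in CNV. Both member counts lie below the share of all miRNAs. The median log2 fold change of the members was 0.12, with 7 of 10 positive, beside 0.015 over all tested miRNAs, of which 51.2% were positive. With total counts only, miR-20b-5p was again the 1 member whose groups did not overlap, against 8.13% higher and 16.6% lower of all tested miRNAs. The median of all miRNAs then moved to -0.14, that of the members to -0.04, and 5 members were positive.

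**Figure D1:**
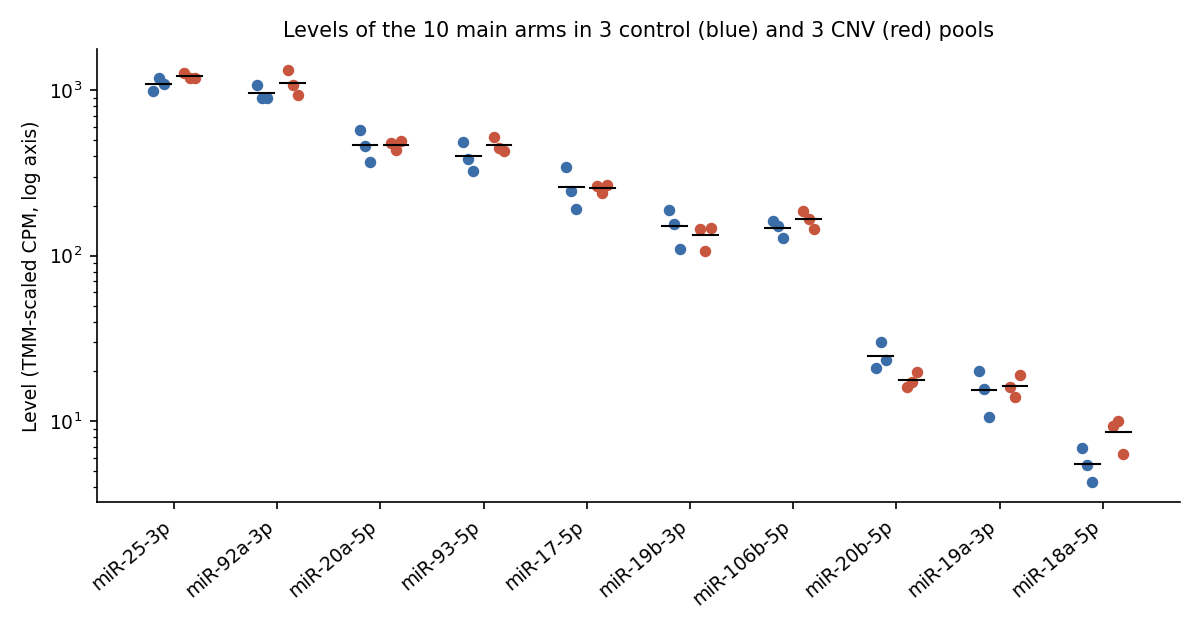
Level of each of the 10 main arms in every pool, as TMM-scaled CPM on a log axis. Points are single pools of 4 eyes (blue control, red CNV) and black bars are group means of 3 pools. The groups overlap for 9 members, and for miR-20b-5p the CNV points (16.1 to 19.8) lie under the lowest control point (21.05).

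The 10 members spanned about 2 orders of abundance. Mean levels over the 6 pools ran from 1154 CPM for miR-25-3p, rank 72 of 1836 miRNAs, to 7.04 CPM for miR-18a-5p, rank 405. In control pools the ranges of miR-25-3p (1092 ± 95.7 CPM, SD, n = 3) and miR-92a-3p (959 ± 109) overlapped. So did those of miR-20a-5p (467 ± 104) and miR-93-5p (399 ± 82.0), though miR-20a-5p was the higher in each control pool. The ranges of miR-19b-3p (152 ± 40.4) and miR-106b-5p (148 ± 17) overlapped as well. The levels of miR-17-5p (260 ± 77.4) fell between these pairs, and miR-20b-5p, miR-19a-3p and miR-18a-5p were the scarce members. All are 21 to 23 nt long, so no length correction was applied. Levels of different miRNAs also depend on how well each is ligated and amplified, which was not measured.

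Within miR-17-92, the miR-17 seed arms did not change detectably. The level of mmu-miR-17-5p, which carries the seed that lowers Cdkn1a, was 343, 245 and 191 CPM in control replicates 1 to 3 and 262, 240 and 267 CPM in CNV replicates 1 to 3. All CNV values lay inside the control range. The fold change was 0.987 (95% interval 0.699 to 1.39, adjusted p = 0.973 by edgeR, as are all adjusted p below). Its partner mmu-miR-20a-5p was at 575, 458 and 367 CPM in control and 478, 436 and 491 in CNV. These values too lay inside the control range, with a fold change of 1.00 (0.746 to 1.35, adjusted p = 0.991). Changes smaller than these intervals were not detectable with these pools.

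The miR-19 arms were spread in the same way among the controls. The scarce mmu-miR-19a-3p had 116, 217 and 52 counts in control and 83, 70 and 110 in CNV. This corresponded to 20.01, 15.6 and 10.6 CPM, and 16.1, 13.9 and 18.9 CPM. The fold change was 1.06 (0.694 to 1.61, adjusted p = 0.921). The more abundant mmu-miR-19b-3p, made from chromosomes 14 and X, was at 190, 155 and 110 CPM in control and 145, 107 and 147 in CNV. Its lowest value came from CNV replicate 2, just under control replicate 3, and the fold change was 0.876 (0.609 to 1.26, adjusted p = 0.722).

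The scarcest member, mmu-miR-18a-5p, had the largest positive difference among the 10. It had 40, 75 and 21 counts in control replicates 1 to 3 and 48, 50 and 37 in CNV replicates 1 to 3, or 6.90, 5.39 and 4.29 CPM against 9.34, 9.95 and 6.36. CNV replicates 1 and 2 lay above every control, and CNV replicate 3 lay below control replicate 1. The log2 fold change was 0.62 (SE 0.28), a 1.54-fold difference (0.994 to 2.38) that did not pass (adjusted p = 0.280 by edgeR). It was 0.45 when only total counts set the scale, and 0.44 to 0.80 when 1 library was left out.

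The other main arm of the chromosome 14 cluster, mmu-miR-92a-3p, was at 1085, 894 and 898 CPM in control and 1331, 1072 and 935 in CNV. CNV replicate 1 was the highest pool and the other CNV pools lay within the control range. The fold change was 1.16 (0.875 to 1.54, adjusted p = 0.613). On the log2 scale it was 0.21, against 0.05 with total counts only, 0.06 without control replicate 2 or without CNV replicate 1, and 0.31 without control replicate 1. Red cells are rich in miR-92a, and the 4 red cell markers (miR-451a, both miR-144 arms and miR-486a-5p) summed to 2141, 2173 and 1337 CPM in control and 4289, 3311 and 978 in CNV. CNV replicate 1 was highest and CNV replicate 3 lowest among CNV pools for the markers as for miR-92a-3p. The order differed among controls, where replicate 2 had the highest marker sum (2173 CPM) but the lowest miR-92a-3p (894 CPM). The marker sum of CNV replicate 3 (978 CPM) was the lowest of all pools. Its miR-92a-3p (935 CPM) nonetheless lay above control replicates 2 and 3. All 4 markers had positive fold changes, edgeR and DESeq2 called 0 of them, and their part in the values of miR-92a-3p was not tested. The endothelial markers (both miR-126a arms) overlapped between groups, at 35250 to 45070 CPM in control and 35450 to 42880 in CNV. Their part was not tested either.

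**Figure D2:**
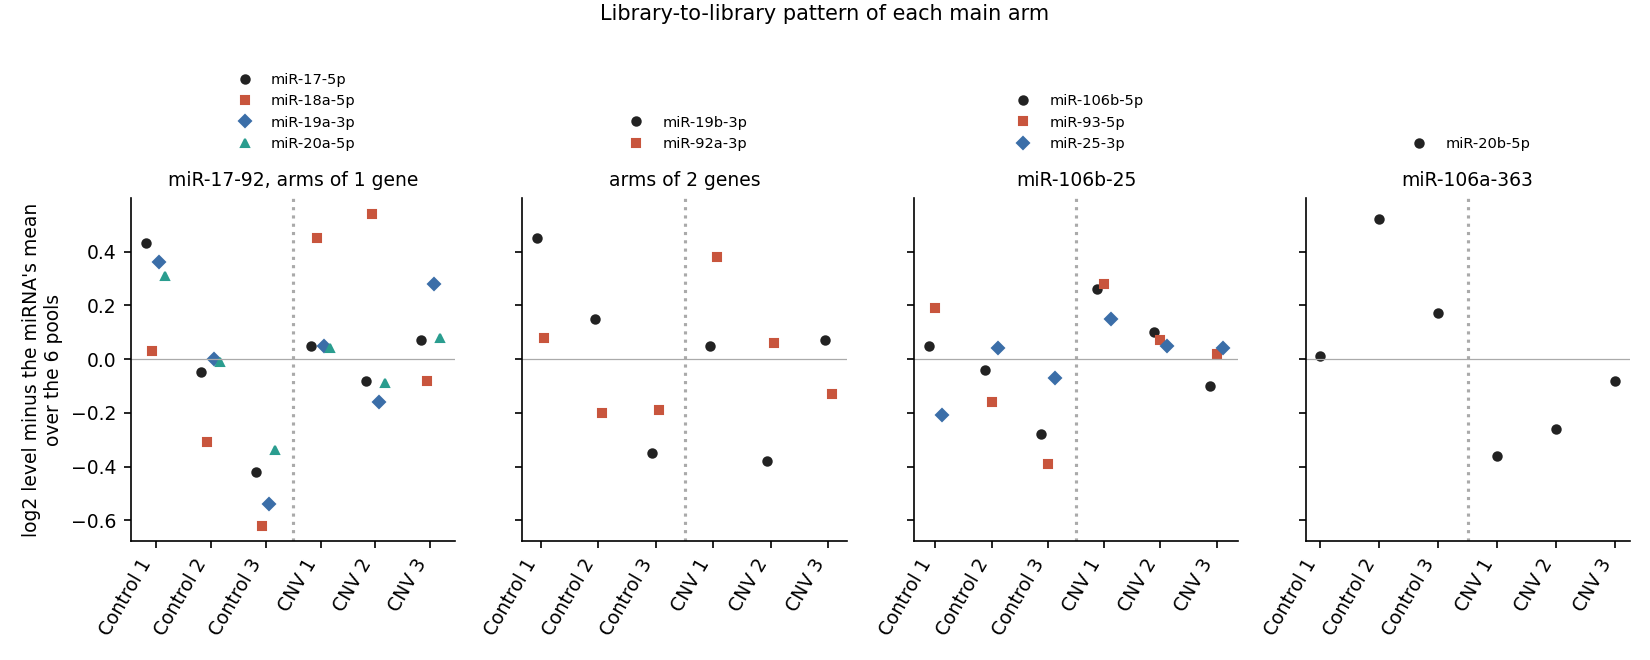
Log2 level (prior count of 2) of each main arm in every pool, less its own mean over the 6 pools, by cluster. In control replicate 3 the 4 single-gene arms of miR-17-92 lie 0.34 to 0.62 below their means and in control replicate 1 they lie 0.03 to 0.43 above.

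Among the pools, those of the control group differed most in miR-17-92. Summed over its 4 arms made from 1 gene (miR-17-5p, miR-18a-5p, miR-19a-3p and miR-20a-5p), the cluster was at 945, 725 and 572 CPM in control and 765, 699 and 783 in CNV. The highest control was 1.65 times the lowest, against 1.12 times among CNV pools. The means of 747 ± 187 and 749 ± 44.2 CPM gave a log2 ratio of 0 (no test was run on sums). Single control pools moved this ratio. Without control replicate 1, and with the scaling recomputed, the groups did not overlap, CNV was higher and the log2 ratio was 0.22. Without control replicate 3 the ratio was -0.20. Control replicate 1 also stood apart in its skeletal muscle markers, at 34300 CPM against 57440 to 91110 in the other pools, and whether this bears on the miR-17-92 level was not tested.

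The 3 main arms of miR-106b-25 each had a small positive difference, and none passed. The level of mmu-miR-106b-5p, a miR-17 seed arm that lowers Cdkn1a, was 162, 152 and 129 CPM in control and 187, 168 and 146 in CNV. Its fold change was 1.13 (0.865 to 1.48, adjusted p = 0.660). That of mmu-miR-93-5p, which shares the seed, was 488, 382 and 326 CPM in control and 521, 449 and 433 in CNV (1.17-fold, 0.874 to 1.57, adjusted p = 0.601). For both, CNV replicate 3 lay under control replicate 1. The most abundant member, mmu-miR-25-3p, was at 995, 1187 and 1094 CPM in control and 1274, 1191 and 1182 in CNV (1.11-fold, 0.888 to 1.40, adjusted p = 0.648). Here control replicate 2 lay just above CNV replicate 3. With total counts only the log2 fold changes were 0.01 for miR-106b-5p, 0.06 for miR-93-5p and 0.01 for miR-25-3p. Leaving out 1 library gave 0.04 (without control replicate 3) to 0.25 (without control replicate 1) for miR-106b-5p, 0.06 to 0.41 without the same libraries for miR-93-5p, and 0.09 (without CNV replicate 3) to 0.12 for miR-25-3p. For miR-25-3p each of these values lay below the log2 fold change with all libraries, 0.16.

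Summed, miR-106b-25 was at 1645, 1721 and 1549 CPM in control and 1982, 1808 and 1761 in CNV. The groups did not overlap, and the means of 1638 ± 86.2 and 1850 ± 116 CPM differed 1.13-fold (log2 0.18). This separation depended on the scaling. It held with relative log expression factors (log2 0.14) and with TMM over miRNAs only (0.24), but not with total counts. With total counts only the sums were 1825, 1864 and 1500 against 1750, 1707 and 1810 CPM, the groups overlapped, and the log2 ratio was 0.02. Markers of leukocytes, which also make these miRNAs, summed to 463 to 581 CPM in control and 612 to 911 in CNV. Of those 4 markers 3 had positive and 1 a negative fold change. By edgeR 0 of the 4 were called. DESeq2 called the 3 positive ones, miR-223-3p and both arms of miR-142a (adjusted p 0.0115 to 0.0165 by DESeq2, 0.127 each by edgeR). It did not call miR-150-5p (adjusted p = 0.103 by DESeq2). Of the fibroblast and mural cell markers, miR-199a-5p and miR-214-3p were also higher in CNV without overlap, while miR-143-3p and miR-145a-5p overlapped. The part of any of these markers in the level of miR-106b-25 was not tested.

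The X-linked mmu-miR-20b-5p was the only member with a log2 fold change below -0.25, the lower quartile of all tested miRNAs. It was at 21.05, 29.98 and 23.5 CPM in control and 16.1, 17.3 and 19.8 in CNV, from 122, 417 and 115 counts and 83, 87 and 115 counts. The highest CNV pool lay under the lowest control pool, by TMM and by total counts alike. The log2 fold change was -0.49 (SE 0.21), or 0.712-fold (0.508 to 0.997), which did not pass (adjusted p = 0.278 by edgeR). The value kept its sign under all 15 alternatives, from -0.65 to -0.42, with an adjusted p of 0.152 to 0.613. Markers of retinal neurons (miR-124-3p and miR-9-5p) were also lower in CNV without overlap, at 7173 to 11720 CPM against 12840 to 19960. So were the RPE markers, at 4522 to 6499 CPM against 6768 to 6985. The photoreceptor sum was lower on average but overlapped, at 24740 to 49470 CPM against 49350 to 75780. The part of these markers in the value of miR-20b-5p was not tested.

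**Figure D3:**
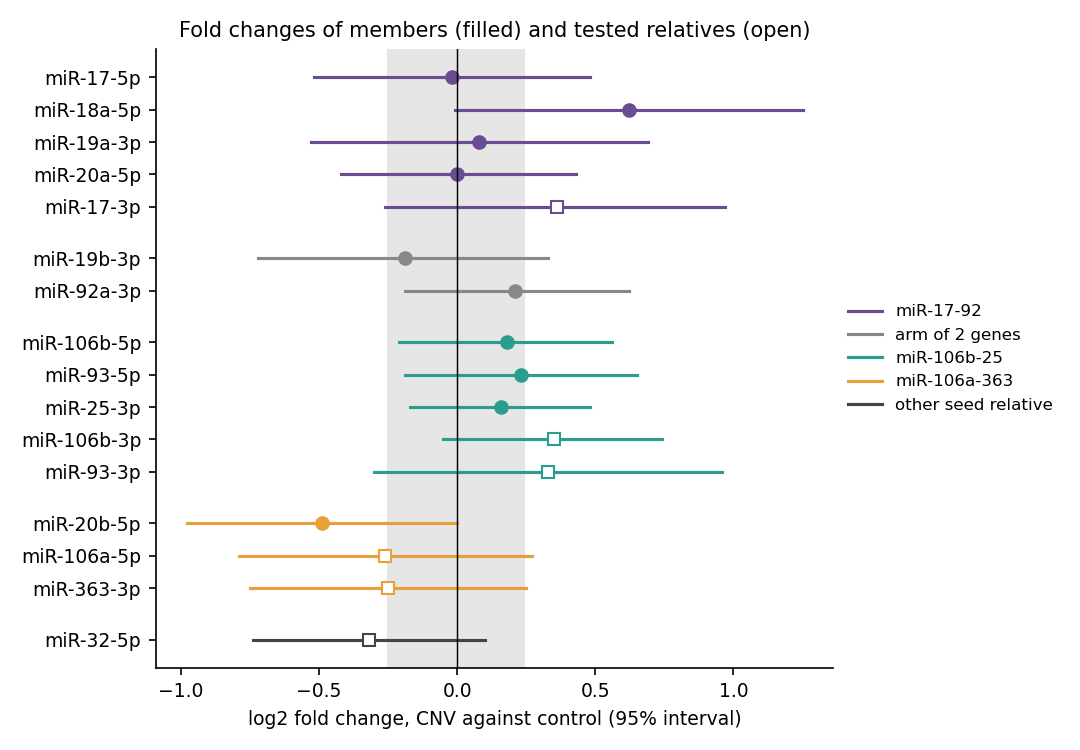
Log2 fold change of CNV against control with its 95% interval for the 10 members (filled circles) and the 6 tested relatives (open squares), by cluster. The grey band is the interquartile range of all tested miRNAs (-0.25 to 0.24), and the interval of miR-20b-5p runs from -0.98 to just under 0.

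The other arms and remaining cluster miRNAs were listed as 19 relatives, including the seed relative miR-32-5p. The tables held 16 of these, and 6 passed the count filter. None of the 6 was called by edgeR or DESeq2, 0 had an unadjusted p under 0.05, and their median log2 fold change was 0.04. For miR-106b-3p, the opposite arm of miR-106b-5p, the groups did not overlap. It was at 139, 137 and 139 CPM in control and 207, 175 and 145 in CNV (log2 0.35, SE 0.17, adjusted p = 0.346). Its groups did overlap with total counts only. The opposite arm of miR-17-5p, miR-17-3p, had a log2 fold change of 0.36 (SE 0.27) on 46 to 207 counts.

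The 2 relatives from chromosome X that passed the filter, miR-106a-5p and miR-363-3p, had negative log2 fold changes. In control miR-106a-5p was at 11.4 ± 1.5 CPM, and in CNV at 9.51 ± 1.76 (log2 -0.26, adjusted p = 0.635). That of miR-363-3p, a miR-25/92 seed arm, was 16.3 ± 0.637 and 13.6 ± 2.96 (log2 -0.25, adjusted p = 0.623). The groups overlapped for both under TMM. With total counts only, miR-106a-5p was lower in CNV without overlap, as were 16.6% of all tested miRNAs, while miR-363-3p still overlapped. On chromosome 4, in an intron of Tmem245, lies miR-32, whose 5p arm has the same seed and was at 46.2 ± 4.61 and 37.0 ± 5.17 CPM (log2 -0.32, adjusted p = 0.432). Summed with miR-18b-5p, which had 10 counts in all libraries together, the 4 X-linked main arms were at 50.0, 56.9 and 51.1 CPM in control and 39.9, 38.4 and 45.1 in CNV. The groups did not overlap under any scaling tried, and the log2 ratio of means was -0.36 under TMM and -0.50 by total counts. This sum includes miR-20b-5p, the member already seen to be lower, so it is no separate evidence for the cluster. Mean levels were 52.65 CPM in control and 41.12 in CNV for the sum, and 24.84 and 17.75 for miR-20b-5p alone. How often other sums separate the groups was not computed.

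A ratio of 2 read counts from the same library does not depend on the scaling. For every 100 reads of the miR-106b-25 arms the X-linked arms had 3.04, 3.30 and 3.30 reads in control and 2.01, 2.12 and 2.56 in CNV. The CNV mean was 0.694 times the control mean. Against 100 reads of miR-25-3p alone, miR-20b-5p had 2.11, 2.53 and 2.15 reads in control and 1.27, 1.45 and 1.67 in CNV. Counting error (exact Clopper-Pearson, 95%) put the highest CNV value between 1.38 and 2.01 and the lowest control value between 1.75 and 2.53. These 2 intervals overlapped, which does not show that the 2 ratios agree within counting error. Against miR-17-92 the X-linked arms overlapped between groups, at 5.29, 7.84 and 8.92 per 100 reads in control and 5.21, 5.49 and 5.75 in CNV. The miR-17-92 arms themselves had 57.4, 42.1 and 36.9 reads per 100 of miR-106b-25 in control and 38.6, 38.7 and 44.5 in CNV, which overlapped as well.

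**Figure D4:**
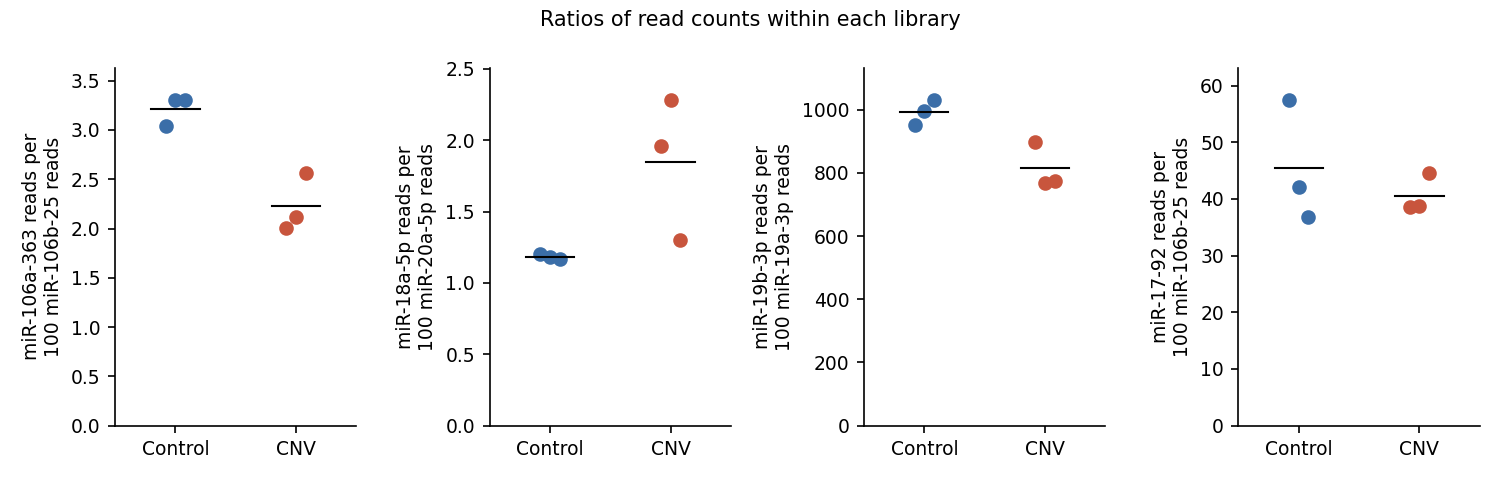
Ratios of read counts within each library, as reads of the first named per 100 reads of the second, with single pools as points and group means as black bars. The X-linked arms have 3.04 to 3.30 reads per 100 of miR-106b-25 in control and 2.01 to 2.56 in CNV, and miR-17-92 against miR-106b-25 overlaps.

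Arms cut from the same transcript can be set against each other in the same way. Reads of miR-18a-5p per 100 of miR-20a-5p were 1.20, 1.18 and 1.17 in control and 1.96, 2.28 and 1.30 in CNV, a mean of 1.18 ± 0.0166 against 1.84 ± 0.503. CNV replicate 3 lay close to the controls, and its counting interval (0.910 to 1.79) held all 3 control values. The interval of CNV replicate 1 (1.44 to 2.60) overlapped those of all 3 controls (0.856 to 1.64, 0.924 to 1.48 and 0.722 to 1.79), and that of CNV replicate 2 (1.69 to 3.02) overlapped the interval of control replicate 3. Reads of miR-20a-5p per 100 of miR-17-5p were 167, 187 and 192 in control and 182, 182 and 184 in CNV, and did not separate the groups. In the miR-19 family miR-19b-3p had 951, 996 and 1030 reads per 100 of miR-19a-3p in control and 898, 769 and 776 in CNV. These groups did not overlap either. The counting intervals of miR-19a-3p per 100 of miR-19b-3p overlapped, at 8.61 to 12.7 in control replicate 1 and 8.77 to 14.0 in CNV replicate 1. Here too, for miR-18a-5p and for the miR-19 arms, overlapping intervals do not show that 2 ratios agree within counting error.

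These pairs were picked after their values were seen. Over all 45 pairs of members the groups did not overlap for 9 (20%), and 6 of those 9 involved miR-18a-5p. Over all 138601 pairs of 527 tested miRNAs, the share was 24.4%, so such separations were no more frequent among the members than elsewhere. No test was run on the ratios, and 3 pools against 3 cannot give an exact permutation p under 0.1.

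The seed families were then summed, with no test. The 5 members with the miR-17 seed summed to 1588, 1268 and 1036 CPM in control and 1464, 1309 and 1356 in CNV (log2 0.09), and made up 99.0 to 99.4% of the reads of all 7 miRNAs named with that seed. The 2 members with the miR-25/92 seed summed to 2080, 2081 and 1992 CPM in control and 2605, 2263 and 2117 in CNV. Those groups did not overlap (log2 0.18), but the ratio was 0.03 with total counts only. Another miRNA with this seed, miR-92b-3p, chosen after its values were seen, was at 44.2 to 91.5 CPM with a log2 fold change of 0.09. The miR-19 family summed to 210, 171 and 120 CPM in control and 161, 121 and 166 in CNV (log2 -0.16), and miR-18a-5p stood nearly alone for its seed, since miR-18b-5p had 0 to 5 counts per library.

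Within the reads of the 5 members that share the miR-17 seed, miR-20a-5p and miR-93-5p held the largest shares. The share of miR-93-5p was 30.7, 30.1 and 31.5% in control and 35.6, 34.3 and 31.9% in CNV, and did not overlap. The gap was narrow, and no test was run on shares. Among ratios of pairs of tested miRNAs, 24.4% separated the groups as well, so this separation is not set apart. The 5 shares are also tied, since a rise in any of them lowers the others. The share of miR-20a-5p was 36.2, 36.2 and 35.4% in control and 32.6, 33.3 and 36.2% in CNV, with CNV replicate 3 as high as the controls. The remaining shares overlapped, those of miR-17-5p at 17.9 to 21.6%, of miR-106b-5p at 10.2 to 12.8% and of miR-20b-5p at 1.1 to 2.36%.

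**Figure D5:**
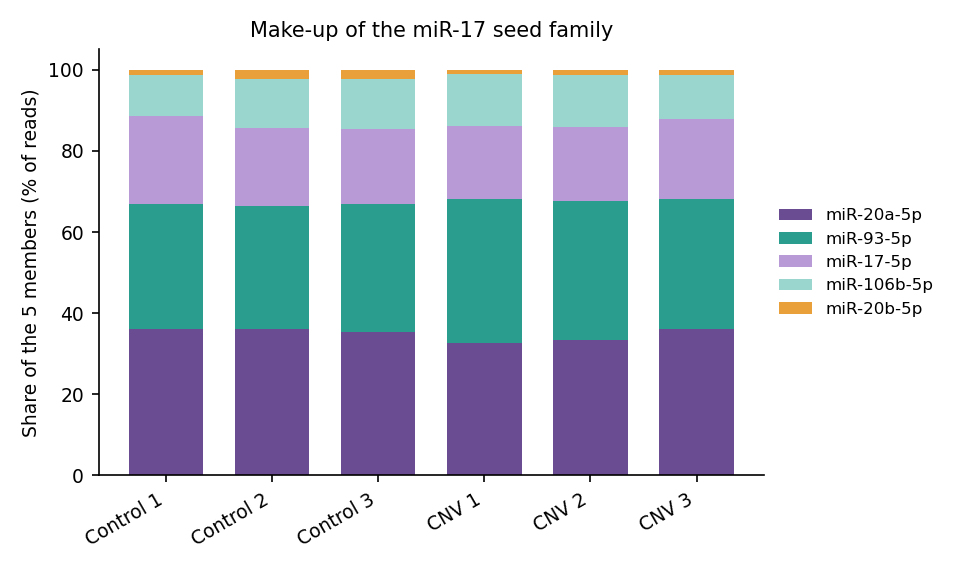
Share of each of the 5 miR-17 seed members in their summed reads, per pool, in percent. The share of miR-93-5p is 30.1 to 31.5% in control and 31.9 to 35.6% in CNV, and no test was run on shares.

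Use of the 2 arms of a hairpin differed widely between hairpins and little between groups. Over all libraries miR-106b-3p had 97.5 reads per 100 of miR-106b-5p, and miR-18a-3p had 26.6 per 100 of miR-18a-5p. By contrast miR-17-3p had 5.92, miR-93-3p 1.34, miR-20a-3p 0.268 and miR-25-5p 0.138 per 100 reads of the main arm. The groups overlapped for each of the 7 hairpins whose arms could be paired. For miR-106b the ratio was 85.7, 90.1 and 108 in control and 111, 104 and 99.4 in CNV. The miR-18a-3p counts of 6 to 25 per library give no precise ratio, at 22.5, 33.3 and 33.3 in control and 18.8, 12.0 and 43.2 in CNV.

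Outside the clusters, the miRNAs most like the mean pattern of the single-gene miR-17-92 arms were sought among 360 tested miRNAs with a mean of at least 10 CPM. The measure was the root mean square difference of log2 levels, each centred on its own mean over the 6 libraries. The closest were miR-376b-3p (0.0885), miR-362-5p (0.122) and miR-410-3p (0.131), all low in control replicate 3 (-0.40, -0.49 and -0.35). For miR-106b-25 they were miR-421-3p (0.0623), let-7d-3p (0.0744) and miR-872-3p (0.0769), each highest in CNV replicate 1 and lowest in control replicate 3. None of these 6 passed the test of CNV against control (adjusted p 0.404 to 0.886 by edgeR).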

How the data were processed

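The deposited tables of the 6 libraries hold a read count for each mature miRNA and each tsRNA (fragment of a tRNA). Per the labels' protocols, inserts of 14 to 40 nt were sequenced on an Illumina instrument. The submitters' processing notes name Bowtie, and the sources used here give neither its version nor the build nor the treatment of multiply matching reads. The authors' CPM values were left aside, because its totals differ between miRNAs and tsRNAs.

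Counts were filtered with filterByExpr (minimum count 10, minimum total 15), scaled by TMM over 997 small RNAs and tested with edgeR 4.0.16 (R 4.3.3) at an adjusted p of 0.05. Limma 3.58.1 (voom) and DESeq2 1.42.0 were alternatives. The test was also run on simulated counts, whose planted changes were larger than any member's estimated difference. The outcome of that run is not given here. Log2 fold change intervals are 95%, from the quasi-likelihood F. Groups and replicate numbers came from the sample titles.

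The members and lists were chosen with earlier results of these data known, so no score over the members was tested. The text names all 10 members, the relatives among the other arms and seed partners with at least 10 CPM or small p, cell type markers given beside a member, and the 3 miRNAs closest to each cluster's pattern. Sequences are from RefSeq (GRCm38.p6), matched by name. Hosts are the genes of GENCODE M21 (GRCm38) that overlap the coordinates of a hairpin.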

Additional observations from a re-analysis of the deposited data

How the results depend on the processing

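No member was called under any of the alternatives (148 member values, 0 called), and 129 of these kept the sign of the reported value. The other 19 changed sign, all in members within 0.19 of 0. For miR-17-5p they were 0.04 with miRNAs only, 0.02 with limma-voom and 0.02 with the replicate block. For miR-19a-3p they were -0.08 with total counts only and -0.01 without a filter on low counts. For miR-20a-5p they were -0.03 with relative log expression factors, -0.15 with total counts only, -0.03 with DESeq2, -0.09 without a filter and -0.02 at a mean of at least 20 CPM. Leaving out 1 library gave -0.24 to 0.24 for miR-17-5p, -0.16 to 0.31 for miR-19a-3p, -0.19 to 0.19 for miR-20a-5p and -0.42 to 0.01 for miR-19b-3p, with the lowest value without control replicate 3 and the highest without control replicate 1 in each case. The median of the members ran from -0.06 to 0.25 in the same way. The summed miR-106b-25 log2 ratio was 0.02 with total counts only and 0.09 to 0.19 leaving out 1 library, and that of miR-106a-363 was -0.50 and -0.51 to -0.34. The cause of these moves was not tested.

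Over all miRNAs the calls numbered 3, against 2 with relative log expression factors, 6 with miRNAs only, 22 with DESeq2, 50 without a filter, 0 at a mean of at least 20 CPM, 23 with the replicate block and 0 to 17 leaving out 1 library. With that block miR-18a-5p was at 0.64 (adjusted p = 0.180 by edgeR) and miR-20b-5p at -0.48 (adjusted p = 0.252). Same-numbered pools correlated in their deviations from the group means at 0.29, 0.03 and 0.17, and differently numbered pools at -0.26 to 0.15. The labels give no pairing, so the block was kept as an alternative, and these correlations do not settle whether the numbers pair the samples. For control replicates 1 and 3 the same-numbered CNV pool was the best match, while control replicate 2 correlated better with CNV replicate 3, at 0.15. The scarcest member, miR-18a-5p, rested on 21 to 75 counts per library.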
